A study of Homo sapiens with 12 samples.

Results

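The lysyl oxidase family consists of the 5 genes LOX, LOXL1, LOXL2, LOXL3 and LOXL4, which were found by symbol among the 62703 Ensembl gene identifiers measured by RNA sequencing in HK2 cells, an immortalised line of human proximal tubular epithelium. All 5 were matched, and 4 of them were among the 14639 genes whose level allowed a test. The 12 libraries fell into 4 groups of 3. NG cells were kept in 5.5 mM glucose and received a control vector, and si-FGF9 cells were kept in 5.5 mM glucose and received a small interfering RNA against FGF9, a fibroblast growth factor. HG cells were kept in 50 mM glucose, and HG+OE-FGF9 cells were kept in 50 mM glucose and received a vector that overexpresses FGF9. The labels name no vector for HG and no non-targeting RNA, so the comparisons of si-FGF9 with NG, and of HG+OE-FGF9 with HG, each include what the transfection itself does. The overexpression vector is a lentivirus in the labels and an adenovirus in the study's results section, which also describes the NG medium as one with mannitol.

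Lysyl oxidases are secreted enzymes that depend on copper and oxidise lysine and hydroxylysine side chains of collagen and elastin, and the aldehydes they form then join into the covalent cross-links that stiffen the extracellular matrix. LOX and LOXL1 are made as proenzymes and are activated by proteolytic removal of a propeptide, whereas LOXL2, LOXL3 and LOXL4 carry scavenger receptor domains in place of it. Cross-linking of this kind is known from the tubulointerstitial fibrosis of the diabetic kidney, and LOX and LOXL2 are textbook targets of hypoxia-inducible factors.

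Levels were deposited as TPM, a measure of transcript abundance scaled for transcript length and to the same sum in every library, so levels of different members can be set side by side. TPM keep no record of sequencing depth, so the depth is unknown and no counting interval can be given. Between 11549 and 13949 genes per library reached 1 TPM. FGF9 itself was listed at 0 in all 9 libraries of NG, HG and si-FGF9, which left the knockdown unchecked in these libraries, and at 3.34, 4.03 and 3.82 TPM in HG+OE-FGF9. By RT-qPCR the study reported lower mean FGF9 in si-FGF9 and HG than in NG. The difference for si-FGF9 did not reach the study's significance level. Of 14 kidney epithelial markers, 9 reached 1 TPM, among them KRT8, KRT18 and PAX8, while the proximal tubule genes LRP2, CUBN, SLC34A1 and ANPEP and the epithelial cadherin CDH1 did not. None of 5 endothelial markers reached 1 TPM, and of 4 leukocyte markers CD68 and CD14 did, while PTPRC, which defines leukocytes, stayed at or below 0.07 TPM. HG+OE-FGF9 replicate 3 stood apart from its group for LOXL2, and HG replicate 3 from its group for LOXL1, and the values of LOXL1, LOXL2, PLOD2, the summed family and the shares are also given without them.

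LOX, the founding member of the family, lies on the minus strand of chromosome 5 from 122063195 to 122078360 (GRCh38, GENCODE release 29; ENSG00000113083). The RefSeq table holds 3 windows of 250 bases before a start of LOX. ACGTG is a form of the core of the motif bound by hypoxia-inducible factors. The most upstream window, chr5:122078260-122078509 on the minus strand (GRCh38.p14), was chosen with the matches known, because it holds ACGTG 4 times on either strand. The matches begin 185, 116, 98 and 42 bases before the start. The other windows, chr5:122077224-122077473 and chr5:122077175-122077424, lie inside the gene, and each held 1 ACGTG and 1 GCGTG. The part that lies before every LOX transcript annotated by GENCODE, chr5:122078361-122078509, holds 2 of these and reads as follows, 5′ to 3′ on the minus strand, with ACGTG or its complement in capitals.
LOX: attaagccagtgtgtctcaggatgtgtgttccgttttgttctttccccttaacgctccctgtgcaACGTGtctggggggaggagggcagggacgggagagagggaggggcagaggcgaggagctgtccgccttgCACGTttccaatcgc
Among 35116 RefSeq promoter windows of 250 bases, 18.5% held ACGTG at least once and 0.669% held it 4 times or more. These shares count ACGTG alone and not other forms of that core. The LOXL1 window, chr15:73926212-73926461 on the plus strand, held no ACGTG, no GCGTG (a core bound with the dioxin receptor, though not by it alone, in 32.2% of windows) and no TGANTCA (the AP-1 motif, in 6.57% of windows). That window lies wholly inside the gene as annotated by GENCODE, with 0 bases before every LOXL1 transcript, so it says nothing of the sequence before the first start. These 3 motifs were searched on both strands, and 4 of the 5 members, LOX, LOXL1, LOXL3 and LOXL4, were in the RefSeq table. The most upstream window of LOX had 55.2% G and C, that of LOXL1 66.8% and that of LOXL4 86.4%, and neither LOXL1 nor LOXL4 held any of the 3 motifs. A match of letters is a description and not a bound site.

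The summed TPM of the 5 members was lower in every library of the other groups than in NG. LOXL2 took most of the sum in each library, and LOXL1 on its own was higher in HG and si-FGF9 than in NG. NG had a summed TPM of 779 ± 39.1 (SD, n = 3), HG of 472 ± 29.2, si-FGF9 of 303 ± 11.1, and HG+OE-FGF9 of 191 ± 68.6. The 3 NG libraries had sums of 735.65, 811.84 and 789.22 TPM, and no library of another group exceeded 505.4 TPM. Within HG+OE-FGF9, the sums were 155.95, 146.35 and 269.66 TPM, and replicate 3 was the highest. Without it the mean was 151 TPM. The 3 main comparisons, which are HG with NG, si-FGF9 with NG, and HG+OE-FGF9 with HG, each gave an exact two-sided permutation p of 0.1, which is the smallest that 3 libraries against 3 can give, and 0.12 after Benjamini-Hochberg adjustment over 6 tests. The groups did not overlap in any of these 3 comparisons. In bulk RNA, fewer cells that express a gene and less of its RNA per cell cannot be told apart.

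**Figure D1:**
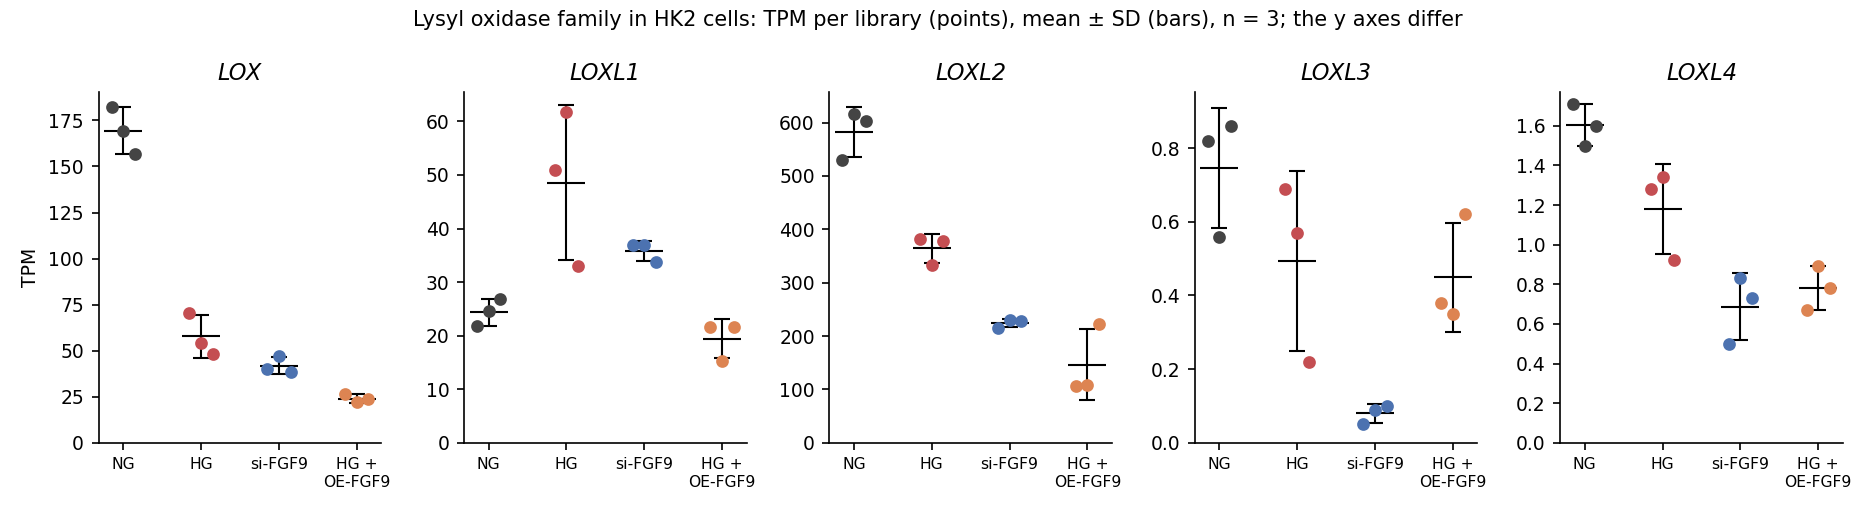
TPM of each member in each of the 12 libraries (points), with the mean and SD of the 3 libraries of a group (bars); the y axes differ between members. LOX and LOXL2 were highest in NG and lowest in HG+OE-FGF9, whereas the mean of LOXL1 was highest in HG.

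LOX was the second most abundant member, with a mean of 73.3 TPM over the 12 libraries. It was at 182.4, 169.25 and 156.64 TPM in NG and at 70.7, 54.28 and 48.23 TPM in HG. In si-FGF9 it was at 39.81, 47.34 and 38.6 TPM, and in HG+OE-FGF9 at 26.42, 21.88 and 23.76 TPM. The 4 groups did not overlap, and the group means fell in the order NG, HG, then si-FGF9, then HG+OE-FGF9. The mean of NG was 2.93-fold that of HG, 4.04-fold that of si-FGF9 and 7.05-fold that of HG+OE-FGF9. By RT-qPCR the study reported the opposite direction for HG and si-FGF9, with more LOX mRNA in both than in NG. It also reported more LOX protein in si-FGF9 than in NG. For HG+OE-FGF9 it reported less LOX mRNA than in HG, the same direction as in these libraries. The reason for the difference was not tested.

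The levels were compared by limma on the scale of log2(TPM + 1), with all 12 libraries in a joint fit, and a gene was called where its log2 fold change was at least 1 in either direction with an unadjusted p under 0.01, the criteria of the study. Adjusted p values are from limma with Benjamini-Hochberg adjustment over all 14639 genes, and since the labels do not say whether the 3 libraries of a group came from separate cultures, they measure the spread between these libraries, which may be technical. LOX fell by 1.55 on the log2 scale in HG versus NG (SE 0.16, adjusted p = 0.00022). From NG to si-FGF9 it fell by 1.99 (adjusted p = 5.39e-06), and from HG to HG+OE-FGF9 it fell by 1.22 (adjusted p = 0.0011). Of the neighbours in the order of levels, HG and si-FGF9 differed by the least, where LOX was at -0.44 in si-FGF9 relative to HG on the log2 scale (95% confidence interval -0.79 to -0.09, adjusted p = 0.052). Between si-FGF9 and HG+OE-FGF9 it was 0.78 higher in si-FGF9 (adjusted p = 0.0053), which did not reach the fold required.

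The longest LOX transcript has 39.6% G and C, lower than in most genes tested, at percentile 14.5, and fold changes followed GC content in these libraries. Across 14191 genes, which are not independent replicates, the 2 were related with a Spearman's rho of 0.64, 0.57 and 0.29 in the 3 main comparisons. Once this trend was removed from each library (the GC correction), LOX was no longer called in these 3 comparisons, with log2 fold changes of -0.50, -0.40 and -0.91 and limma adjusted p values of 0.12, 0.16 and 0.022. LOX was still called in HG+OE-FGF9 versus NG, at -1.41 against -2.77 without the GC correction. The GC correction also moves genes near 0 TPM. FGF9, listed at 0 TPM in NG, HG and si-FGF9, came out at 1.09 in HG and 1.63 in si-FGF9 versus NG and was called in both. Corrected values of genes near 1 TPM or below are limited by this.

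LOXL1, an enzyme that is needed for the deposition of elastic fibres, lies on the plus strand of chromosome 15 from 73925989 to 73952137 (ENSG00000129038). It was at 21.74, 24.54 and 26.83 TPM in NG and at 50.95, 61.75 and 32.99 TPM in HG. The 3 HG libraries lay above the 3 NG libraries, and HG replicate 3 was the lowest of its group. In si-FGF9 LOXL1 was at 36.83, 36.94 and 33.73 TPM, again above every NG library and within the range of HG. In HG+OE-FGF9 it was at 21.55, 15.2 and 21.54 TPM, below every library of the other groups.

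LOXL1 was the member with higher levels in HG and si-FGF9 than in NG, but it was not called in either comparison. Relative to NG, its level on the log2 scale was 0.93 higher in HG (SE 0.22, adjusted p = 0.0049) and 0.54 higher in si-FGF9 (SE 0.22, adjusted p = 0.042). Without HG replicate 3 the value in HG was 1.18 and was called. In HG+OE-FGF9 versus HG, LOXL1 fell by 1.25 on the log2 scale (SE 0.22, adjusted p = 0.0054), and it was called with the GC correction too, at -1.29, and without HG replicate 3, at -1.50. The mean in HG was 2.50-fold that in HG+OE-FGF9. HG+OE-FGF9 and NG, the neighbours at the low end, differed by -0.32 (95% confidence interval -0.80 to 0.15, adjusted p = 0.21), and the sign of this difference turned with the scaling, to 0.33 after scaling by the median of ratios and 0.21 after quantile normalization.

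The longest LOXL1 transcript has 67.6% G and C, at percentile 99.0 of the genes tested, and thus lies at the other end of the GC scale from LOX. With the GC correction, LOXL1 was 0.49 higher in HG than in NG (limma adjusted p = 0.0495) and 0.06 higher in si-FGF9 than in NG (limma adjusted p = 0.79). With scaling by the median of ratios, which brings the median of all genes from -0.39 to 0.01 in HG and from -0.79 to 0 in si-FGF9, these values were 1.43 and 1.55, and LOXL1 was called in both. Quantile normalization gave 1.38 and 1.28.

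LOXL2, which oxidises collagen IV of basement membranes, lies on the minus strand of chromosome 8 from 23297189 to 23425328 (ENSG00000134013). It was the most abundant member in every library, with a mean of 329 TPM, at percentile 97.6 of the genes tested. Its values were 528.98, 615.99 and 603.29 TPM in NG and 381.78, 333.04 and 377.65 TPM in HG. They were 215.51, 229.58 and 228.0 TPM in si-FGF9 and 106.93, 108.03 and 222.96 TPM in HG+OE-FGF9. NG, HG and si-FGF9 did not overlap, whereas HG+OE-FGF9 replicate 3 lay within the range of si-FGF9.

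LOXL2 fell by 1.37 on the log2 scale in si-FGF9 versus NG (SE 0.23, adjusted p = 0.0002). It fell by 1.40 in HG+OE-FGF9 versus HG (SE 0.23, adjusted p = 0.0038). In HG versus NG the log2 fold change was -0.68 (adjusted p = 0.028), short of the fold required. Both calls were also made with the GC correction, at -1.22 and -1.46, and the longest LOXL2 transcript has 58.2% G and C. Scaling by the median of ratios took the value in si-FGF9 to -0.32 (limma adjusted p = 0.13), no longer called. Without HG+OE-FGF9 replicate 3 the value in HG+OE-FGF9 versus HG was -1.75, and LOXL2 was then called higher in si-FGF9 than in HG+OE-FGF9, at 1.05 against 0.71 with all libraries.

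LOXL3 and LOXL4 were near the limit of the filter. LOXL4, a member with scavenger receptor domains on chromosome 10 from 98247690 to 98268250 on the minus strand (ENSG00000138131), was at 1.71, 1.5 and 1.6 TPM in NG and at 1.28, 1.34 and 0.92 TPM in HG. It was at 0.5, 0.83 and 0.73 TPM in si-FGF9 and at 0.67, 0.89 and 0.78 TPM in HG+OE-FGF9. It passed the filter through the 5 libraries of NG and HG that reached 1 TPM, so it was tested because it was higher there. No p value or confidence interval is therefore given here. Relative to NG, its log2 fold change was -0.26 in HG and -0.63 in si-FGF9, and relative to HG it was -0.29 in HG+OE-FGF9. The pseudocount of 1 understates changes at this level, and with 0.1 the value in si-FGF9 was -1.14. The sign of LOXL4 turned to 0.045 and 0.12 in HG with scaling by the median of ratios and quantile normalization, and to 0.069 in si-FGF9 with quantile normalization.

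LOXL3, on chromosome 2 from 74532414 to 74555690 on the minus strand (ENSG00000115318), reached 1 TPM in no library and was not tested. It was at 0.82, 0.56 and 0.86 TPM in NG, at 0.69, 0.57 and 0.22 TPM in HG and at 0.38, 0.35 and 0.62 TPM in HG+OE-FGF9. In si-FGF9 it was at 0.05, 0.09 and 0.1 TPM, below every other library. The mean in NG was 9.33-fold that in si-FGF9, but at an unknown depth the counting error of such values is unknown. Without the filter, its log2 fold change in si-FGF9 versus NG was -0.69 (limma, adjusted p = 0.0022).

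**Figure D2:**
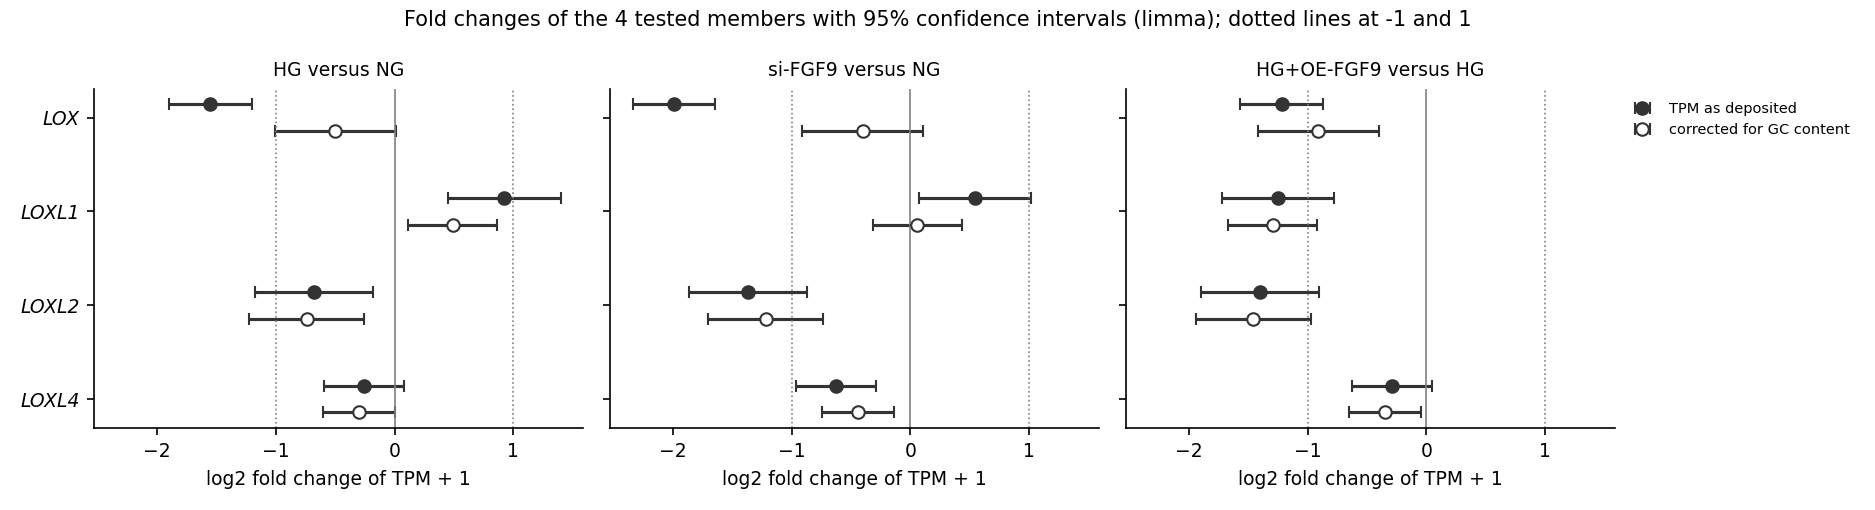
Log2 fold changes of the 4 tested members with 95% confidence intervals from limma, for the TPM as deposited (filled) and after the GC correction (open); dotted lines mark 1 in either direction. The correction moved LOX from -1.55 to -0.50 in HG versus NG and from -1.99 to -0.40 for si-FGF9, and moved LOXL2 by less. LOXL4 passed the filter where it was high, so its intervals are no test of a difference.

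The number of members called can be read against the share of all genes that were called in the same comparison. In HG versus NG, 1 of the 4 tested members was called lower and 0 higher, where 22.7% of all genes tested were called lower and 1.65% higher. In si-FGF9 versus NG, 2 were called lower and 0 higher, against 42.2% and 5.36% of all genes. In HG+OE-FGF9 versus HG, LOX, LOXL1 and LOXL2, 3 of the 4, were called lower, against 2.67% of all genes called lower and 2.94% higher. The median log2 fold change of the 4 was -0.47, -1.0 and -1.23 in the 3 comparisons, and that of all genes -0.39, -0.79 and -0.13. LOXL4, which passed the filter where it was high, is counted among the 4 here and in the contrasts below. In HG+OE-FGF9 versus HG the count of 3 was also found when any of the 12 libraries was left out and with both other scalings. It was 2 with the GC correction, where 309 of all 14191 genes were called lower.

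The remaining contrasts of the same fit order the levels. In HG+OE-FGF9 versus NG, LOX fell by 2.77 and LOXL2 fell by 2.08, so that 2 of the 4 were called lower, against 32.7% of all genes. In si-FGF9 versus HG, limma called 0 of the 4, where 9.67% of all genes were called lower and 1.40% higher. There 3 of the 4, LOX, LOXL2 and LOXL4, had an unadjusted p under 0.05, as did 6761 of all 14639 genes. That of LOXL4 is no test of a difference, since LOXL4 passed the filter where it was high. In si-FGF9 versus HG+OE-FGF9 limma called 0 of the 4 as well, where 7.36% were called lower and 1.65% higher. Again 3 had an unadjusted p under 0.05, as did 5585 of all 14639 genes. These 3 were LOX, LOXL1 and LOXL2, which were 0.78, 0.87 and 0.71 higher in si-FGF9 on the log2 scale. Contrasts that share a group share its libraries.

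The make-up of the family is given by the share of each member in the summed TPM. LOXL2 took 74.7% ± 2.47 (SD, n = 3) of the sum in NG and 77.2% ± 4.36, 74.1% ± 1.44 and 75.0% ± 7.13 in the groups HG, si-FGF9 and HG+OE-FGF9, and these ranges overlapped. LOX took 21.8% ± 2.62 in NG and, in the same order, 12.2% ± 1.76, 13.8% ± 1.13 and 13.6% ± 4.24 in the others. LOXL1 took 3.13% ± 0.24 in NG and 10.3% ± 3.27, 11.8% ± 0.70 and 10.7% ± 2.93 in the other groups, so that outside NG the mean shares of LOX and LOXL1 lay close to each other. Without HG replicate 3 the mean shares of LOXL1 and LOX in HG were 11.9% and 13.0%, and without HG+OE-FGF9 replicate 3 those in HG+OE-FGF9 were 12.1% and 15.9%.

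The share of LOX was between 19.8% and 24.8% in NG and at most 13.99% in HG and 15.04% in si-FGF9. Neither HG nor si-FGF9 overlapped NG, each with an exact permutation p of 0.1 (adjusted 0.12), the smallest possible. In HG+OE-FGF9 versus HG the shares overlapped (exact permutation p = 0.7), and in HG+OE-FGF9 replicate 3 LOX took 8.81%, the lowest share of the 12 libraries. The ratio of LOXL1 to LOX was 0.119, 0.145 and 0.171 in the 3 NG libraries and between 0.684 and 1.14 in the other 9, with means of 0.847 (HG), 0.860 (si-FGF9) and 0.806 (HG+OE-FGF9). This ratio is unchanged when a library is scaled by a single factor, but not by quantile normalization, and it does depend on GC content. The log2 fold change of LOXL1 minus that of LOX was 2.48 between HG and NG and 2.53 between si-FGF9 and NG, and 0.99 and 0.46 with the GC correction.

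**Figure D3:**
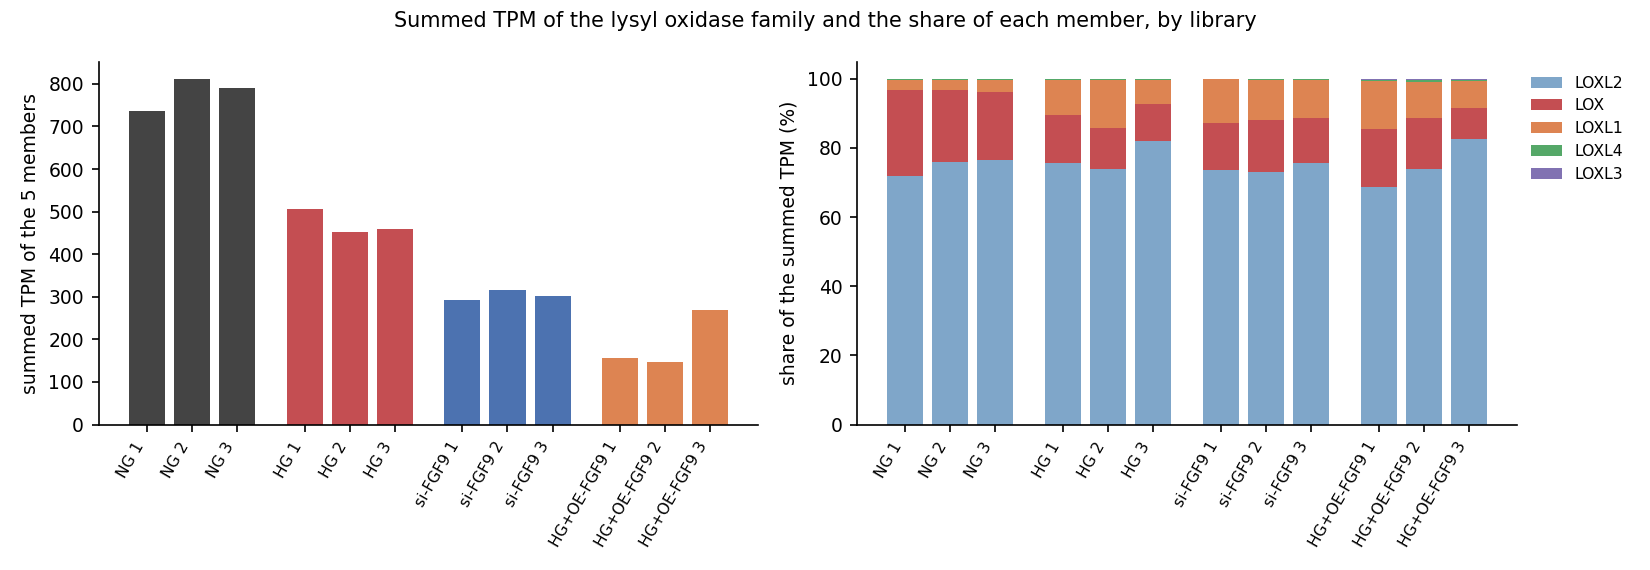
Summed TPM of the 5 members in each library (left, bars from 0) and the share of each member in that sum in percent (right). LOXL2 took most of the sum in each library, and the share of LOXL1 was 3.13% on average in NG and above 10% on average in each other group.

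Over the 12 libraries, LOX and LOXL2 varied together, with a Pearson r of 0.91 for log2(TPM + 1), whereas LOX and LOXL1 did not, with an r of 0.11. After the GC correction these became 0.72 and 0.71. LOX and LOXL4 had an r of 0.85, and LOXL2 and LOXL4 an r of 0.79. These correlations describe 12 libraries in 4 groups, which share the differences between the groups.

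The genes most like each tested member over the 12 libraries were named by the same Pearson r. For LOX they were hexokinase 2, a first enzyme of glucose use whose gene symbol is also HK2, at r = 0.98, the fatty acid desaturase SCD (0.98) and the lipid droplet protein PLIN2 (0.98). PLIN2 was at 490 to 502 TPM in NG and at 126 to 136 TPM in HG+OE-FGF9. For LOXL2 they were SFXN3, a mitochondrial carrier of the sideroflexin family, the class I antigen HLA-C and the endothelin-converting enzyme ECE1, each at 0.99. For LOXL1 they were S100A10, the partner of annexin A2 (0.95), the decoy receptor TNFRSF6B (0.91) and the peptide hormone UCN2 (0.91). S100A10 was at 1050 to 1063 TPM in NG, at 1171 to 1648 TPM in HG and at 861 to 918 TPM in HG+OE-FGF9. For LOXL4 they were the focal adhesion protein PARVA (0.96), the F-box protein FBXL7 (0.96) and the chemokine CCL20 (0.95). With the GC correction, r was 0.84 for hexokinase 2, 0.78 for S100A10 and 0.99 for SFXN3, and it was 0.29 for PARVA and 0.17 for CCL20.

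Several members overlap other genes, and whether the counting used strand is not given in the sources used here, so that reads of overlapping genes may not be told apart. LOXL1 overlaps the antisense RNA LOXL1-AS1 over 2260 bases, which was at 16.4 to 30.4 TPM in the 12 libraries, close to the level of LOXL1 in NG. LOXL1-AS1 was called in none of the 3 main comparisons, and in HG it was at -0.33 relative to NG on the log2 scale (adjusted p = 0.13), where LOXL1 was at 0.93. In si-FGF9 versus NG, however, LOXL1-AS1 was called higher with the GC correction, at 1.15 (limma adjusted p = 0.00013), where LOXL1 was at 0.06, and with the median of ratios, at 1.21. LOX overlaps SRFBP1, on the opposite strand, which was at 3.99 to 4.52 TPM in NG, at 0.37 to 1.98 TPM in HG, at 0.09 to 0.43 TPM in si-FGF9 and at 3.66 to 12.52 TPM in HG+OE-FGF9. SRFBP1 was thus called lower in HG and si-FGF9 versus NG, as LOX was, with log2 fold changes of -1.33 and -2.04, and higher in HG+OE-FGF9 versus HG, at 2.15, where LOX fell. With the GC correction the first 2 of these were -0.21 and -0.39, neither called. LOXL2 overlaps ENTPD4, on the same strand, which was at 21.1 to 23.8 TPM in NG and at 4.50 to 13.5 TPM in the other groups. LOXL3 overlaps HTRA2 and DOK1, which at 10.8 to 25.7 and 1.71 to 7.72 TPM were far above LOXL3.

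Substrates of the enzymes were measured unequally. Of 10 collagen and elastin genes, COL1A1, COL4A1, COL4A2 and COL5A1 were tested, and elastin (ELN), COL1A2 and COL3A1 stayed at or below 0.22 TPM. COL4A1, a chain of basement membrane collagen IV, fell in all 3 main comparisons, with log2 fold changes of -1.59, -2.83 and -1.08. It was at 282.23, 223.32 and 223.58 TPM in NG and at 34.93, 38.36 and 26.96 TPM in si-FGF9. Its partner chain COL4A2 was called in none of them, with log2 fold changes of -0.20, -0.46 and -0.81. COL1A1, the main fibrillar chain, fell by 1.03 in HG and fell by 1.15 in si-FGF9, from 4.35, 7.81 and 5.79 TPM in NG, and COL5A1 fell by 1.14 in HG+OE-FGF9 versus HG. In all, 2 of the 4 were called lower in each comparison and 0 higher, where 22.7%, 42.2% and 2.67% of all genes tested were called lower. With the median of ratios COL5A1 was at -0.98 in HG+OE-FGF9 versus HG and not called, and the sign of COL4A2 turned, to 0.32 in HG and 0.59 in si-FGF9. The calls of COL1A1 were lost without NG replicate 2 (-0.84 in HG and -0.96 in si-FGF9), in HG without HG replicate 3 (-0.90), and with either other scaling (-0.58 and -0.34 with the median of ratios, -0.40 and -0.11 with quantile normalization). That of COL4A1 in HG+OE-FGF9 versus HG was lost without HG replicate 1 (-0.99), without HG+OE-FGF9 replicate 2 (-0.96) and with the median of ratios (-0.92).

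Among the lysyl hydroxylases, which make the hydroxylysine that lysyl oxidases convert, PLOD2 was the 1 of 3 that was called, and it was lower in each main comparison. Of all genes, 22.7%, 42.2% and 2.67% were called lower there. PLOD2, which acts on collagen telopeptides, was at 333.24, 283.6 and 260.88 TPM in NG, at 120.32, 57.76 and 83.92 TPM in HG, at 43.95, 46.6 and 25.87 TPM in si-FGF9 and at 10.98, 11.58 and 31.15 TPM in HG+OE-FGF9. NG, HG and si-FGF9 did not overlap, whereas HG+OE-FGF9 replicate 3 lay within the range of si-FGF9. PLOD2 fell by 1.79 in HG versus NG (adjusted p = 0.0029), fell by 2.92 in si-FGF9 versus NG and fell by 2.32 from HG to HG+OE-FGF9 (adjusted p = 0.0036), and the last of these was -2.78 without HG+OE-FGF9 replicate 3. PLOD1, which acts on the collagen helix, had log2 fold changes of -0.10, 0.17 and -0.49, none of them called. With the median of ratios, PLOD1 and PLOD3 were called higher in si-FGF9 versus NG, at 1.22 and 1.61, and PLOD1 turned to 0.42 in HG, whereas neither was called there with quantile normalization or the GC correction. The median of ratios called 2812 of all 14639 genes higher in si-FGF9 versus NG. With the GC correction PLOD2 was at -0.68 in HG versus NG and was not called there, and it was called in the other main comparisons under every alternative run.

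Of 10 genes that process or place lysyl oxidases, 8 were tested, and 1, 3 and 2 of them were called lower in the 3 comparisons, with 0 called higher, against 22.7%, 42.2% and 2.67% of all genes called lower. Among those in si-FGF9 versus NG was TLL1, a protease related to BMP1. It reached 1 TPM in the NG libraries alone (1.59, 1.84 and 1.11) and so was tested because it was high there. Its mean was 1.51 TPM in NG and 0.16 TPM in si-FGF9, yet with the GC correction it was at 0.32. In si-FGF9 versus NG the counts were 1 lower and 1 higher with the GC correction, 1 lower and 2 higher with the median of ratios, and 2 lower and 2 higher with quantile normalization. Over all genes the same settings gave 1701 lower and 1751 higher of 14191, 2557 and 2812 of 14639, and 2500 and 2373 of 14639. The gene called higher with the GC correction was TLL2, at 1.36, which was called with the other scalings too, at 1.28 and 1.41, and the other was the collagen C-proteinase enhancer PCOLCE, at 1.66 and 1.64. TLL2 was at only 1.02 to 3.65 TPM in the 12 libraries. FGF9, at 0 TPM in both groups, was also called with the GC correction there, at 1.63. Fibronectin (FN1), which binds LOX and its activating protease, was at 6148.63, 4745.44 and 4663.82 TPM in NG and at 559.98, 567.19 and 1941.99 TPM in HG+OE-FGF9, where replicate 3 again was the highest. FN1 fell by 1.80 in si-FGF9 versus NG and fell by 1.52 in HG+OE-FGF9 versus HG, and in HG versus NG its log2 fold change of -1.07 had a p of 0.024 in limma and was not called. Fibrillin 1 (FBN1), the scaffold of elastic fibres, fell too, with log2 fold changes of -1.19, -2.10 and -1.33. BMP1, the protease that activates LOX, was at 25.4 to 59.7 TPM in the 12 libraries and was not called, with log2 fold changes of -0.34, -0.15 and -0.55, and turned to 0.18 and 0.88 in HG and si-FGF9 with the median of ratios. The call of FN1 in HG+OE-FGF9 versus HG was lost without HG replicate 1 (-1.46) or 3 (-1.27) and without HG+OE-FGF9 replicate 1 (-1.22) or 2 (-1.23), and with a fit on the 6 libraries alone, which also ended that of FBN1. In si-FGF9 versus NG, FN1 was at -0.43 with the GC correction and -0.75 with the median of ratios, neither called. The call of FBN1 in HG was lost without NG replicate 1 (-1.07) or HG replicate 2 (-0.93), with the GC correction (-0.70), with the median of ratios (-0.68) and with quantile normalization (-0.98).

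Of 5 genes of copper delivery, 4 were tested, and limma called 0 of them in HG versus NG and 0 in HG+OE-FGF9 versus HG. In HG versus NG all 4 had an unadjusted p under 0.05, as did 8160 of all 14639 genes. In HG+OE-FGF9 versus HG ATOX1 alone had one, as did 4132 of all genes. The values nearest to the criteria in HG were the copper importer SLC31A1 at -0.90 (adjusted p = 0.0020) and the copper chaperone ATOX1 at 0.87 (adjusted p = 0.0018). ATOX1 was called higher in HG with the GC correction, at 1.52, and with the median of ratios, at 1.40. In si-FGF9 versus NG, SLC31A1 fell by 1.33 and ATOX1 rose by 1.79 (adjusted p = 7.79e-06), and 3 of the 4 were called lower and 1 higher, against 42.2% and 5.36% of all genes. Among those called lower was SLC31A2, at 1.58, 2.18 and 1.46 TPM in NG and at or below 0.08 TPM in si-FGF9. It needed the NG libraries to pass the filter, so it was tested because it was high there. ATOX1 was at 125.91, 144.98 and 154.71 TPM in NG and at 538.62, 500.63 and 443.4 TPM in si-FGF9. After the GC correction 0 of the 4 were called lower in si-FGF9 versus NG and 1 higher, where 1701 and 1751 of all 14191 genes were. SLC31A1 was at -0.17 there, against -0.35 with the median of ratios and -0.41 with quantile normalization.

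All 7 genes listed as regulators of transcription of the family were tested, and 4, 5 and 1 of them were called lower in the 3 comparisons, with 0 called higher, where 22.7%, 42.2% and 2.67% of all genes were called lower. HIF1A, the oxygen-regulated subunit of hypoxia-inducible factor 1, was at 516.73, 471.97 and 415.81 TPM in NG and at 78.35, 37.16 and 216.03 TPM in HG. It fell by 2.43 in HG versus NG and fell by 3.59 in si-FGF9 versus NG. Its partner ARNT, with values of -1.30 and -1.69, and SMAD4, which carries transforming growth factor signals, with values of -1.65 and -2.24, were called lower in the same comparisons. The growth factor TGFB2 fell in the 3 comparisons, with log2 fold changes of -2.44, -3.61 and -1.57, and was the 1 regulator called in HG+OE-FGF9 versus HG. TGFB1, the other isoform, had log2 fold changes of 0.35, 0.97 and -0.13 and was not called, but in si-FGF9 versus NG it was called higher with the median of ratios, at 2.01, and with quantile normalization, at 1.29. With the GC correction, 2, 2 and 1 of the 7 were called lower, where 434, 1701 and 309 of all 14191 genes were called lower. ARNT was then at -0.83 and -0.86 and SMAD4 at -0.69 and -0.76 in HG and si-FGF9. ARNT was not called with either other scaling, at -0.82 and -0.78 with the median of ratios and -0.71 and -0.66 with quantile normalization.

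**Figure D4:**
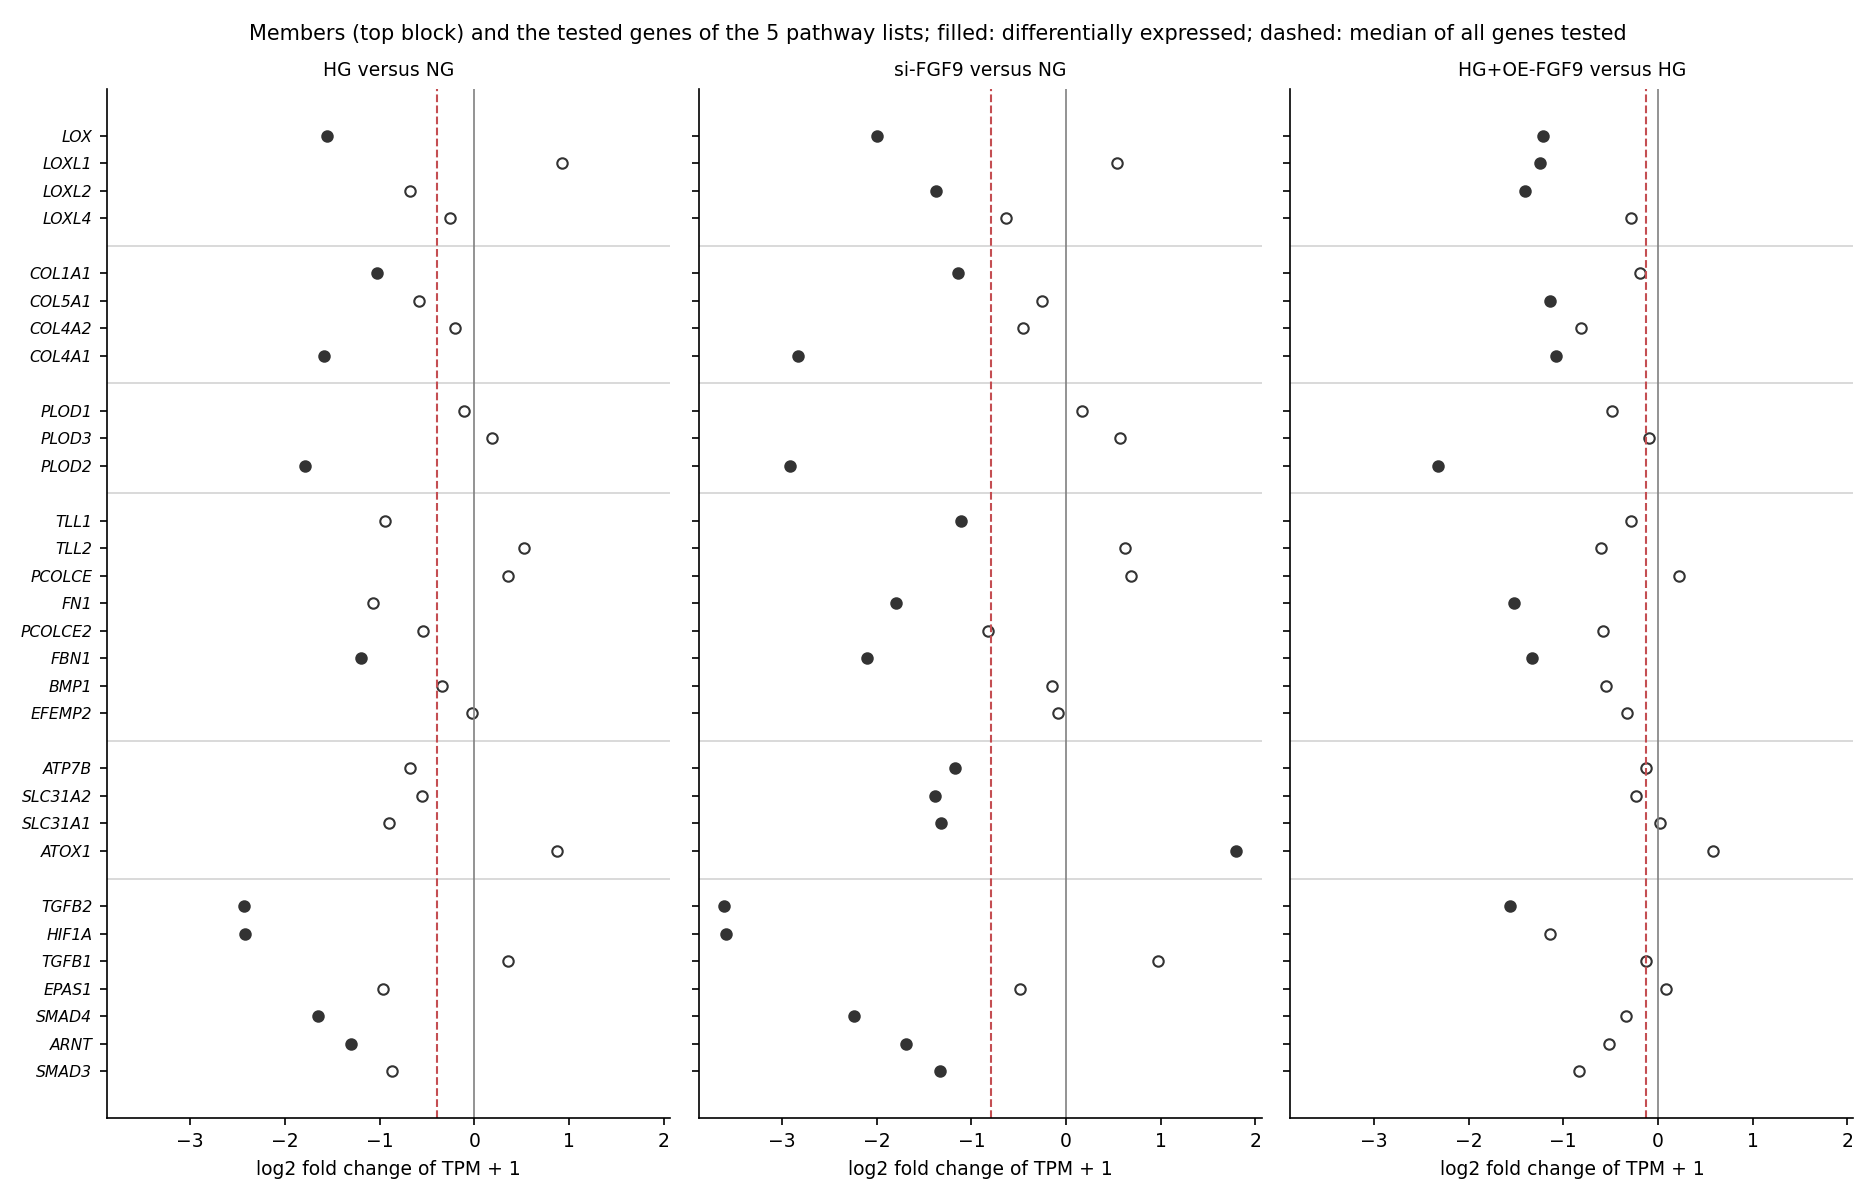
Log2 fold changes of the 4 tested members (top block) and, below, of the tested substrates, lysyl hydroxylases, processing and placement genes, copper delivery genes and regulators; filled points were called and the dashed line is the median of all genes tested. In HG+OE-FGF9 versus HG that median was -0.13, and LOX, LOXL1, LOXL2 and PLOD2 lay at -1.22 or below, as did FN1, FBN1 and TGFB2.

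The summed TPM of markers of fibroblasts, cells that also make lysyl oxidases and fibrillar collagen, was lower in the other groups than in NG, as LOX was. The sum, most of which was LUM, was 62.4 to 89.2 in NG and, in the groups HG, si-FGF9 and HG+OE-FGF9, 17.4 to 41.0, 11.6 to 21.0 and 11.6 to 22.5. Of 7 markers 3 reached 1 TPM, namely LUM, COL1A1, which is also on the list of substrates, and, in NG replicate 2 alone, DCN. The defining receptor PDGFRA was at or below 0.02 TPM in all 12 libraries, and PDGFRB and THY1 were at or below 0.41 TPM. THY1, COL3A1 and PDGFRA had higher means in HG than in NG, whereas LUM, COL1A1, DCN and PDGFRB had lower ones. LUM and COL1A1 were tested, and both were called lower in HG and in si-FGF9 versus NG, LUM at -1.31 and -2.16. LOX was called in HG+OE-FGF9 versus HG before the GC correction. LUM, at -1.02 on the log2 scale, had an unadjusted limma p under 0.05 there, and COL1A1 did not. Neither marker was called there with any of the scalings or with that correction. After it, LUM was at -0.68 and LOX at -0.91 (limma adjusted p = 0.045 and 0.022), both short of the fold required. With the GC correction LUM was at -0.18 and -0.51 in HG and si-FGF9 versus NG and was not called, whereas COL1A1 was called, at -1.21 and -1.19. With either other scaling 0 of the 2 were called in HG versus NG. In si-FGF9 versus NG LUM was called with both, at -1.15 with the median of ratios and -1.48 with quantile normalization, and COL1A1 with neither. The part of such cells in the levels of LOX was not tested.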

How the data were processed

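RNA of HK2 cells was sequenced in 12 libraries, 3 per group, grouped by the sample titles. The authors deposited TPM for 62703 Ensembl genes, given to 2 decimals, and each library's own file held the same values as the joint table. The submitters' processing notes list Bowtie 0.12.2 and the build mm8, a mouse build, with no role given, although the identifiers are human; the quantification tool, annotation and strand setting are not given in the sources used here.

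Genes with at least 1 TPM in 3 or more libraries were tested with limma 3.58.1 (R 4.3.3, empirical Bayes with a variance trend) on log2(TPM + 1), with the group as the only term. Sums and shares were compared by exact permutation. Coordinates, GC content and length are from GENCODE release 29 (GRCh38) and promoters from RefSeq (GRCh38.p14). The GC correction subtracted a natural spline with 5 degrees of freedom from each library, for the 96.9% of genes tested that had a GC value. The fit was tested on simulated data.

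The members and the gene lists were chosen with earlier results of these data known. Named are the 5 members, the 3 genes most correlated with each tested member, overlapping genes, and list genes called in at least 2 of the 3 main comparisons or among the 2 most abundant of their list. COL5A1, BMP1, TLL1, TLL2, PCOLCE, PLOD3, SLC31A2, the fibroblast markers and the unexpressed substrates fall outside this rule and were named after their values were seen. Alternatives were a pseudocount of 0.1, no filter and a stricter one, other scalings, the GC correction, library weights, no variance trend, fits on 6 libraries, an adjusted p criterion, a replicate block and each library left out in turn.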

Additional observations from a re-analysis of the deposited data

How the results depend on the processing

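Of the 570 values of single members under the alternatives, 534 kept their direction and their side of the criteria, 14 were newly called, 8 were no longer called and 14 changed sign. The number of members called in HG versus NG went from 1 to 2 with scaling by the median of ratios and with quantile normalization, to 0 with the GC correction, and ranged from 1 to 2 with a library left out (2 without HG replicate 3). In si-FGF9 versus NG it went from 2 to 1 with the median of ratios (LOXL1 in place of LOX and LOXL2) and to 1 with the GC correction. It rose there with quantile normalization, with 2 called lower and LOXL1 called higher. It also rose with a pseudocount of 0.1, where LOXL4 was newly called, at -1.14. In si-FGF9 versus HG+OE-FGF9 it went from 0 to 3 with the median of ratios and to 1 with quantile normalization, the GC correction and library weights, and ranged from 0 to 1 with a library left out (1 without HG+OE-FGF9 replicate 3). The sign also turned for LOX in si-FGF9 versus HG, to 0.075 with the median of ratios and 0.10 with the GC correction, for LOXL1 in the same comparison, to 0.13 with the median of ratios, and for LOXL4 in si-FGF9 versus HG+OE-FGF9, to 0.075, 0.22 and 0.20 with the median of ratios, quantile normalization and the GC correction and over a range of -0.142 to 0.0013 with a library left out (0.0013 without si-FGF9 replicate 1). LOXL4 turned in HG versus NG (0.045 and 0.12) and in si-FGF9 versus NG (0.069), and LOXL1 in HG+OE-FGF9 versus NG (0.33 and 0.21), with the scalings named in the report. The share of LOX in HG+OE-FGF9 minus that in HG, 1.40 percentage points, ranged from -0.289 to 3.78 with a library left out. The cause of these changes was not tested.

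The replicate numbers did not pair the libraries: 18 correlations of same-numbered libraries ranged from -0.44 to 0.25. With the replicate block the number of members called was the same in each comparison, 1, 2 and 3 in the main ones, and 3518, 6922 and 793 genes in all were called against 3570, 6966 and 821 without it. With the replicate block and the GC correction together the counts were 0 in HG versus NG, 1 in si-FGF9 versus NG and 1 in si-FGF9 versus HG+OE-FGF9, LOX in si-FGF9 versus HG was 0.10 and LOXL4 in si-FGF9 versus HG+OE-FGF9 was 0.20, as with the GC correction alone. Over all genes, the GC correction left 970, 3452 and 739 called in the 3 main comparisons, and the median of ratios moved the split of higher and lower calls in HG versus NG from 242 and 3328 to 1088 and 1211, in si-FGF9 versus NG from 785 and 6181 to 2812 and 2557 and in HG+OE-FGF9 versus HG from 430 and 391 to 533 and 261. Library weights were taken as estimated, although their iteration stopped before it converged. Depth is unknown, so no counting error can be given for any member.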
